A study of Homo sapiens with 208 samples.

Results

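Transcripts of 10 integrin subunits, ITGA2, ITGA3, ITGA5, ITGA6, ITGAV, ITGB1, ITGB4, ITGB5, ITGB6 and ITGB8, were followed in gefitinib-sensitive PC9 cells and in the gefitinib-resistant line PC9M2. The genes were taken by name, through the accession that the array assigns to each probe, and had 19 probes on 37 spots. They are 10 of the 16961 genes named on the array, and 9 of them were among the 13263 genes bright enough to be tested. The exception was ITGB8, whose most variable probe was too dim, so ITGB8 is described by its brightest probe.

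PC9 is a lung adenocarcinoma line that carries an activating deletion in EGFR, and gefitinib inhibits the EGFR kinase. PC9M2, named PC9GRM2 in the sample labels, was selected from PC9 by long gefitinib exposure and repeated refining of clones, so that it stands for 1 selected line. Both lines were starved for 48 h and then received no treatment, 100 ng/ml EGF, 0.5 µM gefitinib, or EGF together with gefitinib. EGF, the ligand of EGFR, was added at 0 h and gefitinib 2 h earlier, so that the first gefitinib samples had already met the drug. RNA was collected at 26 time points, at 0, 0.5 and 1 h and then hourly to 24 h, and each sample was hybridised once to a one-colour 44K array. No time point was repeated within a course, so every p-value below measures the spread between time points of a pair of courses, and neighbouring time points were not independent.

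All 6 epithelial markers (EPCAM, CDH1, KRT7, KRT8, KRT18 and KRT19) were above background on every array, whereas the leukocyte marker PTPRC was so on 1 array. The probes of PECAM1, VWF and CD3E, markers of endothelial cells and T cells, were above background on at least 194 arrays, in near equal numbers in both lines. VWF was higher with gefitinib by 1.76 in PC9 and 1.08 in PC9M2, and PECAM1 changed by -0.17 and 0.59, all called. Untreated PC9M2 had less of both than PC9, by log2 differences of -1.01 for VWF and -1.50 for PECAM1. CD3E was not called in these comparisons, and the part of these markers in the results below was not tested. Between 24755 and 36332 features were above background per array in PC9 and between 26982 and 33937 in PC9M2. The PC9 arrays were scanned with a saturation value near 65526 and had a median of 776 saturated features, whereas the PC9M2 arrays had a saturation value of at least 778994 and 0 saturated features. Line and scan cannot be told apart, as slides and scan days in common numbered 0, while the 4 treatments of a line at a time point lay on 1 slide. Relative to the neighbouring time points, the array of untreated PC9M2 at 11 h stood farthest apart, with a standard deviation over genes of 1.05 log2 units, and that of PC9 with gefitinib at 16 h came next at 0.887, where the median array had 0.393.

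Integrins are receptors in the cell membrane that hold cells to the extracellular matrix, and each is a pair of an α and a β subunit. ITGA6 and ITGA3 encode α subunits of laminin receptors, ITGA2 that of a collagen receptor and ITGA5 that of the classical fibronectin receptor. ITGB1 is the β partner of many α subunits, whereas ITGB4 pairs with the ITGA6 product and anchors epithelial cells to the basement membrane in hemidesmosomes. ITGAV is the α partner of the ITGB5, ITGB6 and ITGB8 products, which bind vitronectin or latent TGF-β. Integrins signal through focal adhesion kinases and are known to cooperate with EGFR in epithelial cells.

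The results turn mainly on ITGA6 and ITGA2, and the 250 bases before their annotated starts are shown here because both genes fell furthest with gefitinib. The sequences are those of RefSeq on GRCh38.p14, 5′ to 3′ on the plus strand, at chr2:172427086-172427335 for ITGA6 and at chr5:52989102-52989351 for ITGA2. Capitals mark matches to the letters searched on both strands, GGGCGG (SP1), TGANTCA (AP-1) and CACGTG (E-box).
ITGA6: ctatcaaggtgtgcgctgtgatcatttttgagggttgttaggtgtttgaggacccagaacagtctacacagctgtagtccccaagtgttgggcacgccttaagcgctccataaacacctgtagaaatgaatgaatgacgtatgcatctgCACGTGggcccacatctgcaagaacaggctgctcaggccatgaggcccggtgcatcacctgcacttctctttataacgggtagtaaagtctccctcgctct
ITGA2: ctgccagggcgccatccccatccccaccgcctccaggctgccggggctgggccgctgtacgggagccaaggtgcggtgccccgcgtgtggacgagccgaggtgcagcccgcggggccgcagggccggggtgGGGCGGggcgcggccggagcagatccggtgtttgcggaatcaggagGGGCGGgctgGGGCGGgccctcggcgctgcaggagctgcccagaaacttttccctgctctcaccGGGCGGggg
The ITGA6 window held 1 CACGTG, and the ITGA2 window held 4 copies of GGGCGG. Neither held TGANTCA in these 250 bases. Of the 35116 promoter windows of this length, 42.6% held GGGCGG, 6.34% held CACGTG and 6.57% held TGANTCA. Of the other members with a window, ITGB1 had 3 copies of GGGCGG, ITGB5 and ITGB8 had 2 each, ITGA5 had 1, and ITGAV and ITGB6 had 0. These matches are letters only and say nothing of binding.

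Gefitinib lowered most of the subunits in PC9. Of the 9 tested, 8 were lower with gefitinib than without treatment and 0 were higher, beside 37.2% of all tested genes lower, 35.1% higher and 72.3% called in either direction (limma on differences at matched time points, two-sided, Benjamini-Hochberg adjusted p under 0.05). Signals are relative to all RNA on an array, so fewer cells with a transcript and less transcript per cell cannot be told apart. The median over the 9 subunits of the mean log2 difference was -0.88, beside -0.02 over all tested genes. In PC9M2, 5 of the 9 subunits were lower and 0 were higher, beside 34.2% of all genes lower, 32.6% higher and 66.7% called, and the median of the subunits was -0.26 beside -0.01. The 5 lower in PC9M2 were ITGA6, ITGA2, ITGAV, ITGA5 and ITGB1, all of which were among the 8 lower in PC9.

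ITGA6, the α subunit of laminin receptors, had the largest difference among the subunits. Without treatment, its log2 signal in PC9 ran from 12.26 to 13.36 with a median of 12.93. With gefitinib it started at 12.61 at 0 h and stood at 7.62 at 24 h, with a lowest value of 7.20, a median of 9.29 and a highest of 12.98. From 4 h on, every gefitinib value lay below every untreated value, which held for 21 of the 26 time points. The mean difference was -3.13 (SE 0.35, n = 26 time points, 95% interval -3.82 to -2.45, limma adjusted p = 6.46e-09), or 8.76-fold lower, and it was negative at 26 of 26 time points. The difference deepened through the course, from -0.43 ± 0.36 (SD, n = 6) over 0 to 4 h to -2.48 ± 0.92 (n = 7) over 5 to 11 h, -4.35 ± 0.46 (n = 7) over 12 to 18 h and -5.16 ± 0.19 (n = 6) over 19 to 24 h. A spline of time fitted to the difference spanned 5.19 log2 units (limma F-test, adjusted p = 3.64e-16).

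In PC9M2, ITGA6 fell as well, but by less and to a plateau. Untreated values lay between 12.92 and 14.52 with a median of 14.29, and the lowest came from the 11 h array that stood apart from its neighbours. With gefitinib the values went from 14.34 at 0 h to 12.19 at 24 h, between 12.10 and 14.55 with a median of 12.70. From 7 h on, all gefitinib values, 18 in number, lay under the lowest untreated value. The mean difference was -1.22 (SE 0.14, n = 26, adjusted p = 2.45e-08), or 2.32-fold lower, and negative at 24 of 26 time points. It was -0.09 ± 0.23 (SD, n = 6) over the first 4 h, -1.72 ± 0.23 (n = 7) over 12 to 18 h and -1.92 ± 0.11 (n = 6) over the last 6 time points. The fitted difference spanned 2.12 log2 units with its lowest point at 20 h (adjusted p = 3.23e-07).

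**Figure D1:**
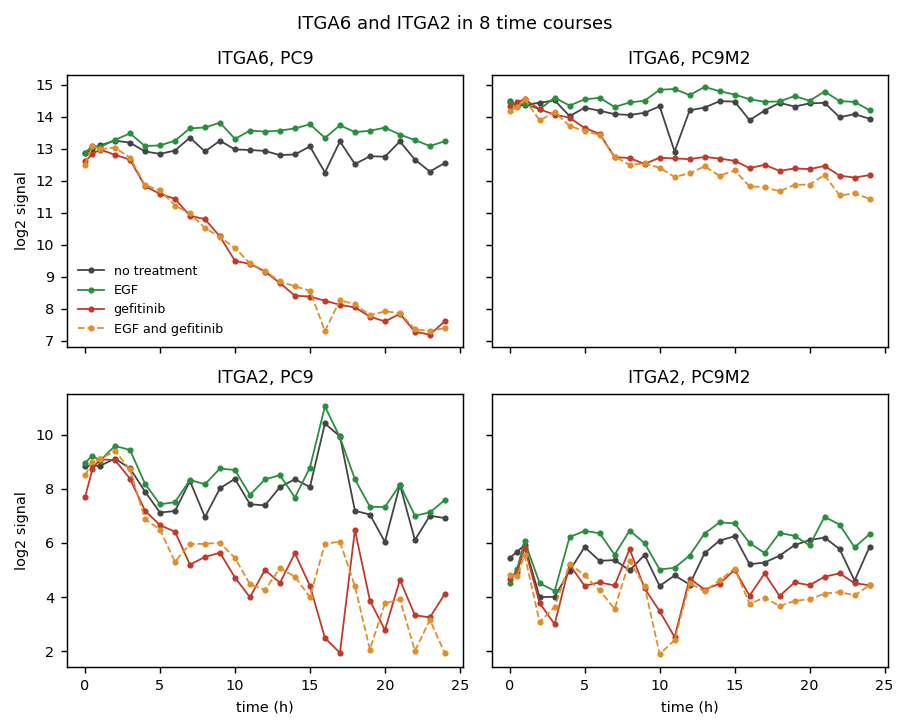
Log2 signal of ITGA6 (top) and ITGA2 (bottom) against time in hours, in PC9 (left) and PC9M2 (right), with 1 point per array and 1 line per treatment. ITGA6 in PC9 went from 12.61 to 7.62 with gefitinib and stayed between 12.26 and 13.36 without treatment, and in PC9M2 with gefitinib alone it went from 14.34 to 12.19.

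ITGA2, the α subunit of the collagen receptor, came second. Its most variable probe read 6.04 to 10.41 in untreated PC9, with a median of 8.04, and 1.95 to 9.09 with gefitinib, with a median of 5.10. The courses overlapped early, and every gefitinib value from 19 h on was below the lowest untreated value, as were 17 of 26 in all. The mean difference was -2.52 (SE 0.38, n = 26, 95% interval -3.28 to -1.77, adjusted p = 1.33e-06), or 5.74-fold lower, and negative at 25 of 26 time points. The largest single differences, -7.91 at 16 h and -7.99 at 17 h, combined the highest untreated values with the lowest values under gefitinib. This probe was well above background on 26 untreated and 16 gefitinib arrays, so the low end of the gefitinib course is poorly measured.

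The ITGA2 signal in PC9M2 ran lower from the start. Untreated values lay between 4.00 and 6.25 with a median of 5.49, and gefitinib values between 2.53 and 5.83 with a median of 4.51. The ranges overlapped, and 4 of the 26 gefitinib values lay below the whole untreated course. Gefitinib lowered ITGA2 by a mean difference of -0.90 (SE 0.13, adjusted p = 8.82e-07), or 1.86-fold, at 23 of 26 time points. The probe was above background on 22 untreated and 15 gefitinib arrays of this line.

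ITGA3, which pairs with ITGB1 as a laminin receptor, was lower with gefitinib in PC9 from the first samples on. Untreated values were 11.02 to 13.16 (median 11.80) and gefitinib values 10.11 to 12.34 (median 10.92), with 16 gefitinib values under the whole untreated course. The mean difference was -0.90 (SE 0.09, adjusted p = 6.63e-10), a 1.87-fold decrease seen at 26 of 26 time points. It was already -0.81 ± 0.13 (SD, n = 6) over 0 to 4 h and -0.73 ± 0.21 (n = 6) over 19 to 24 h, with no change over time called. In PC9M2, where untreated values were 11.36 to 13.48 (median 12.65) and gefitinib values 11.57 to 13.56 (median 12.33), the difference of -0.08 (95% interval -0.25 to 0.10, adjusted p = 0.462) did not pass the test.

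ITGA5, the fibronectin receptor subunit, behaved in PC9 much as ITGA3 did in size. Its values were 6.91 to 8.66 (median 7.78) without treatment and 5.38 to 8.08 (median 6.94) with gefitinib, of which 12 lay below the untreated range. The difference was -0.89 (SE 0.09, adjusted p = 1.99e-09), 1.86-fold lower, at 26 of 26 time points. In PC9M2 the untreated range of 5.64 to 7.38 (median 6.97) held every gefitinib value, from 5.87 to 7.07 (median 6.56). The 5.64 came from the 11 h array that stood apart from its neighbours, as did the lowest untreated PC9M2 values of ITGA3 and ITGB4. The paired difference of ITGA5 in PC9M2 was nevertheless called, at -0.35 (SE 0.08, adjusted p = 0.000256, lower at 22 of 26 time points). It was -0.07 ± 0.21 (SD, n = 6) over 0 to 4 h and -0.66 ± 0.06 (n = 6) over 19 to 24 h, and over the first 13 time points alone it did not pass the test (-0.13, adjusted p = 0.354).

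ITGB1, the common β partner, fell in both lines. In PC9 its most variable probe read 10.61 to 12.76 (median 11.71) untreated and 9.62 to 12.09 (median 11.02) with gefitinib, and 10 gefitinib values were below the untreated course. The difference was -0.88 (SE 0.10, adjusted p = 2.00e-08), 1.84-fold lower, at 25 of 26 time points. In PC9M2 the courses overlapped nearly throughout, at 10.35 to 12.23 (median 11.48) untreated and 10.55 to 12.26 (median 11.15) with gefitinib. The difference of -0.26 (SE 0.09, adjusted p = 0.0163, 21 of 26 time points) arose late, at 0.18 ± 0.42 (SD, n = 7) over 5 to 11 h and -0.77 ± 0.30 (n = 6) over 19 to 24 h. It was 0.02 over the first 13 time points, and it was not called with the variance inflated for autocorrelation (adjusted p = 0.0707).

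The difference with gefitinib changed over time for ITGB1 in both lines, spanning 1.09 log2 units of the spline for PC9 (adjusted p = 0.0118) and 1.11 for PC9M2 (adjusted p = 0.00599). Of the 9 subunits tested, 5 changed in this way in each line, beside 52.3% of all genes in PC9 and 45.5% in PC9M2. In PC9 these were ITGA6, ITGA2, ITGB1, ITGB4 and ITGB5, and in PC9M2 ITGA6, ITGAV, ITGB1, ITGB4 and ITGB6. The ITGAV probe was above background on 7 untreated and 4 gefitinib arrays of PC9M2. Its call for change over time there was lost under 7 of 16 alternatives.

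ITGB4, the hemidesmosomal partner of ITGA6, was not called for a mean difference with gefitinib in either line. Untreated PC9 gave 12.45 to 14.29 (median 13.30) and gefitinib 12.87 to 14.30 (median 13.47), and 0 gefitinib values lay below the untreated range. The mean difference of 0.24 (SE 0.11, 95% interval 0.02 to 0.47, adjusted p = 0.0550, higher at 17 of 26 time points) missed the threshold. Its course had a shape, however, at 0.82 ± 0.62 (SD, n = 7) over 5 to 11 h and -0.21 ± 0.21 (n = 6) over 19 to 24 h, and the change over time was called (fitted range 1.29, highest at 7 h, adjusted p = 0.00169). In PC9M2 untreated values of 11.48 to 14.12 (median 13.10) met gefitinib values of 12.01 to 14.60 (median 13.14), 8 of which exceeded the untreated range. The mean difference there was 0.19 (95% interval -0.01 to 0.39, adjusted p = 0.104), made of 0.74 ± 0.68 (n = 7) over 5 to 11 h and -0.16 ± 0.15 (n = 6) over 19 to 24 h (fitted range 0.97, adjusted p = 0.0236). Over the first 13 time points ITGB4 was higher with gefitinib in both lines, with means of 0.48 for PC9 (adjusted p = 0.0195) and 0.56 for PC9M2 (adjusted p = 0.00481), and over the last 13 it was lower in PC9M2 (-0.18, adjusted p = 0.00212). With EGF present, the gefitinib difference of ITGB4 over 19 to 24 h was below 0 at every time point, at -0.56 ± 0.20 (SD, n = 6) in PC9 and -0.66 ± 0.19 (n = 6) in PC9M2.

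ITGAV and its β partners are described next. The most variable probe gave ITGAV values of 4.13 to 7.70 (median 6.17) in untreated PC9 and 3.25 to 6.87 (median 5.30) with gefitinib, which overlapped at all but 3 time points. The difference was -0.77 (SE 0.21, adjusted p = 0.00193, lower at 20 of 26 time points). In PC9M2 the values were 1.93 to 5.84 (median 3.96) and 1.88 to 4.58 (median 3.34), with a difference of -0.63 (SE 0.22, adjusted p = 0.0156, 20 of 26). Only 7 untreated and 4 gefitinib arrays of PC9M2 had this probe above background, and without the 11 h and 16 h time points the PC9M2 difference was not called (-0.49, adjusted p = 0.0536). The call in PC9 was lost over the first 13 time points (-0.58, adjusted p = 0.0931). Of 19 alternatives, 3 lost the ITGAV call in PC9 and 6 lost that in PC9M2.

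ITGB5, a vitronectin receptor subunit, fell late and in PC9. Its values there were 12.61 to 13.69 (median 13.18) untreated and 11.83 to 13.54 (median 12.65) with gefitinib, and all gefitinib values from 14 h on were below the untreated range. The difference averaged -0.49 (SE 0.11, adjusted p = 0.000251, lower at 18 of 26 time points), at -0.02 ± 0.37 (SD, n = 7) over 5 to 11 h and -1.16 ± 0.18 (n = 6) over 19 to 24 h. Over the first 13 time points it was -0.06 (adjusted p = 0.617). In PC9M2 the values were 12.63 to 13.66 (median 13.19) and 12.34 to 13.98 (median 13.40), a difference of 0.10 (95% interval -0.02 to 0.23, adjusted p = 0.134).

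ITGB6, whose product binds latent TGF-β, had untreated values of 6.53 to 8.65 (median 7.61) and gefitinib values of 5.98 to 8.08 (median 7.00) in PC9. The ranges overlapped, and 4 gefitinib values lay below the untreated course. The paired difference was -0.62 (SE 0.10, adjusted p = 4.59e-06, lower at 25 of 26 time points). In PC9M2 the values of 7.00 to 8.19 (median 7.43) and 7.06 to 8.09 (median 7.64) differed by 0.13 (95% interval -0.00 to 0.26, adjusted p = 0.0915), which passed the test when arrays were scaled to the 75th percentile (0.25, adjusted p = 0.00263).

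ITGB8, the remaining partner of ITGAV, went the other way in PC9. By its brightest probe, values were 9.19 to 11.62 (median 10.20) untreated and 9.77 to 11.94 (median 11.01) with gefitinib, and 3 gefitinib values exceeded the whole untreated course. The difference was 0.62 (SE 0.14, adjusted p = 0.000172, higher at 19 of 26 time points). It was 1.13 ± 0.30 (SD, n = 6) over 0 to 4 h and -0.31 ± 0.42 (n = 6) over 19 to 24 h, with a fitted range of 1.84 (adjusted p = 0.000616). In PC9M2 the values of 10.12 to 11.82 (median 10.82) and 10.41 to 11.83 (median 10.72) differed by -0.04 (adjusted p = 0.679), from 0.32 ± 0.30 (n = 6) early to -0.53 ± 0.12 (n = 6) late.

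**Figure D2:**
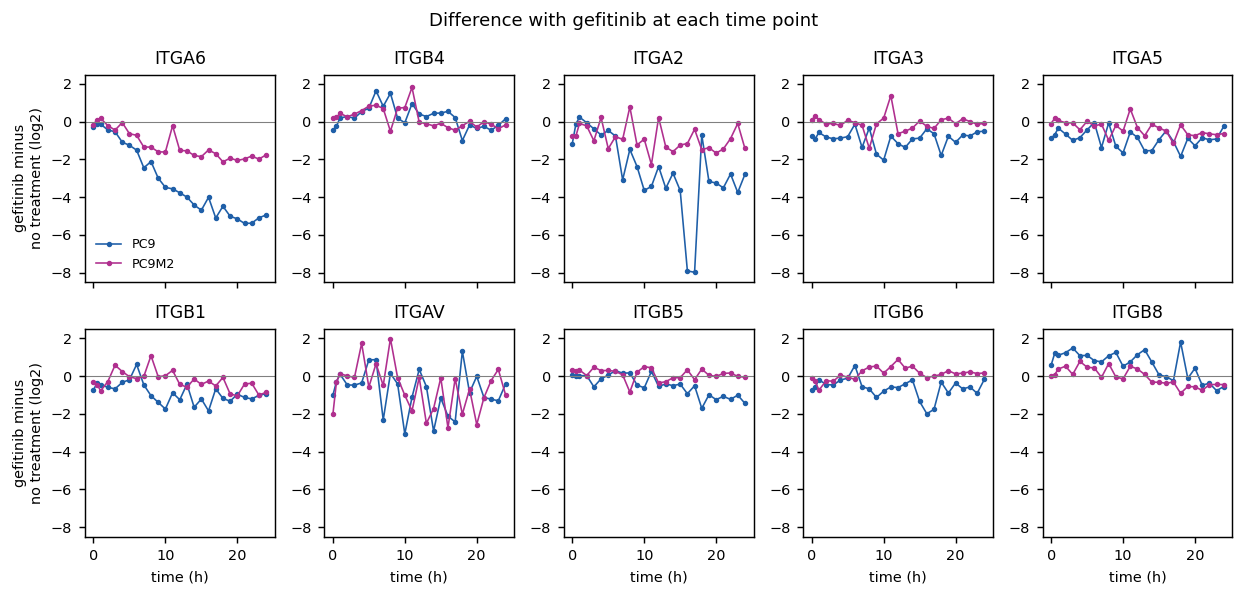
Log2 signal with gefitinib minus log2 signal without treatment at each of the 26 time points, in hours, 1 panel per subunit, for PC9 (blue) and PC9M2 (magenta). ITGA6 separated the lines steadily, reaching -5.16 in PC9 and -1.92 in PC9M2 as means over 19 to 24 h, whereas ITGB4 had its highest means over 5 to 11 h in both lines, 0.82 and 0.74.

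The gefitinib differences were then compared between the lines by taking the PC9 difference from the PC9M2 difference at each time point. A positive value means that PC9M2 fell by less than PC9 or did not fall. For 7 of the 9 tested subunits the value was positive and passed the test, and for 0 it was negative and called, beside 17% of all genes positive, 16.9% negative and 34% in either direction. The median was 0.62 for the subunits and 0.01 over all tested genes.

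ITGA6 led with 1.92 (SE 0.23, 95% interval 1.47 to 2.36, adjusted p = 2.57e-07), positive at 26 of 26 time points. ITGA2 followed with 1.62 (SE 0.38, adjusted p = 0.00129, 19 of 26), but over the first 13 time points its 0.61 was not called (adjusted p = 0.233). These ITGA2 values come from its most variable probe, above background on 15 gefitinib arrays of PC9M2. Its other probes gave smaller values of 1.21, 1.18 and 1.08, all called. For the laminin receptor subunit ITGA3 the value was 0.83 (SE 0.13, adjusted p = 1.25e-05, 25 of 26), and for ITGA5 it was 0.54 (SE 0.11, adjusted p = 0.000502, 21 of 26). Among the β subunits, ITGB6 had 0.74 (SE 0.13, adjusted p = 3.93e-05), ITGB1 0.62 (SE 0.14, adjusted p = 0.000693) and ITGB5 0.59 (SE 0.13, adjusted p = 0.000493). The calls of ITGB6, ITGB1 and ITGB5 were lost over the first 13 time points, at adjusted p = 0.128, 0.0735 and 0.307. ITGB8 had the opposite sign, at -0.67 (SE 0.12, adjusted p = 5.33e-05, 24 of 26). Its other tested probes gave smaller values of the same sign, -0.49, which was called, and -0.35, which was not.

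The difference between lines was not detected for ITGAV (0.14, 95% interval -0.39 to 0.67, adjusted p = 0.733) or ITGB4 (-0.05, 95% interval -0.30 to 0.19, adjusted p = 0.773). The ITGAV interval holds values as large as those of ITGB1, ITGB5 and ITGA5, while that of ITGB4 does not.

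Added on top of EGF, gefitinib again lowered most of the subunits. In PC9, 8 of 9 were lower than with EGF alone, and 0 were higher, beside 39.9% of all genes lower, 39% higher and 78.9% called. ITGA6 ran from 12.87 to 13.82 (median 13.47) with EGF and from 7.31 to 13.10 (median 9.30) with both, a difference of -3.61 or 12.2-fold (adjusted p = 4.80e-09). ITGA2 went from 7.01 to 11.04 (median 8.34) with EGF to 1.93 to 9.40 (median 5.38) with both, a difference of -2.91. The other subunits lowered were ITGB1 (-1.25), ITGA5 (-1.0), ITGA3 (-0.84), ITGB6 (-0.65), ITGB5 (-0.45, n = 25 because 1 outlying spot was left out) and ITGAV (-0.44).

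In PC9M2, 6 of 9 subunits were called for gefitinib on top of EGF, with 5 lower and 1 higher, beside 37.8% of all genes lower, 36.7% higher and 74.5% called. ITGA6 had values of 14.21 to 14.94 (median 14.51) with EGF and 11.44 to 14.56 (median 12.37) with both, a difference of -1.89 (adjusted p = 1.37e-09). ITGA2 read 4.23 to 6.96 (median 6.03) with EGF and 1.90 to 5.55 (median 4.20) with both, a difference of -1.72 (adjusted p = 1.77e-10). ITGA5 (-0.52), ITGB1 (-0.47) and ITGA3 (-0.23, adjusted p = 0.00111) were lower, and ITGB5 was higher by 0.13 (adjusted p = 0.0259). The ITGB5 call was lost under 9 of 20 alternatives, among them the fit without the 11 h and 16 h time points.

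EGF by itself raised several subunits by small amounts. In PC9, 6 of 9 were higher with EGF than without treatment and 0 lower, beside 11.3% of all genes higher, 14.3% lower and 25.6% called. The members were ITGA6 at 0.51 (SE 0.06, adjusted p = 7.61e-07), ITGA2 at 0.46 (SE 0.08, adjusted p = 0.000138) and ITGB1 at 0.42 (SE 0.06, adjusted p = 1.33e-05), each higher at 24 of 26 time points. ITGB4 (0.24), ITGA5 (0.19) and ITGB6 (0.15) had smaller increases with adjusted p between 0.0119 and 0.0316. The ITGA6 ranges with EGF (12.87 to 13.82) and without (12.26 to 13.36) overlapped, and with the courses compared unpaired 1 of the 9 subunits, ITGA6, was called. The median of the 9 subunits was 0.19, beside -0.01 over all genes.

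In PC9M2, EGF raised 3 of 9 subunits and lowered 0, beside 4.09% of all genes higher, 5.04% lower and 9.13% called. They were ITGA2 at 0.52 (SE 0.10, adjusted p = 0.000967), ITGA6 at 0.34 (SE 0.07, adjusted p = 0.00279) and ITGB6 at 0.21 (SE 0.06, adjusted p = 0.0158). Within a line, the comparisons of gefitinib alone and of EGF alone share the untreated arrays, and gefitinib on top of EGF was compared with the EGF arrays.

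With gefitinib already present, few differences with EGF were called. In PC9, 0 of 9 subunits were called by limma and 0 had an unadjusted p under 0.05, beside 0.0452% of all genes called. In PC9M2, 1 of 9 was called and 2 had an unadjusted p under 0.05, beside 3.21% of all genes called, 1.07% higher and 2.14% lower. That subunit was ITGA6, which was lower with both agents than with gefitinib alone by a log2 difference of -0.33 (SE 0.05, adjusted p = 0.000397, 22 of 26 time points), opposite in sign to the effect of EGF alone. The brightest probe of ITGB8 gave -0.19 (SE 0.04, adjusted p = 0.00795, 21 of 26).

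**Figure D3:**
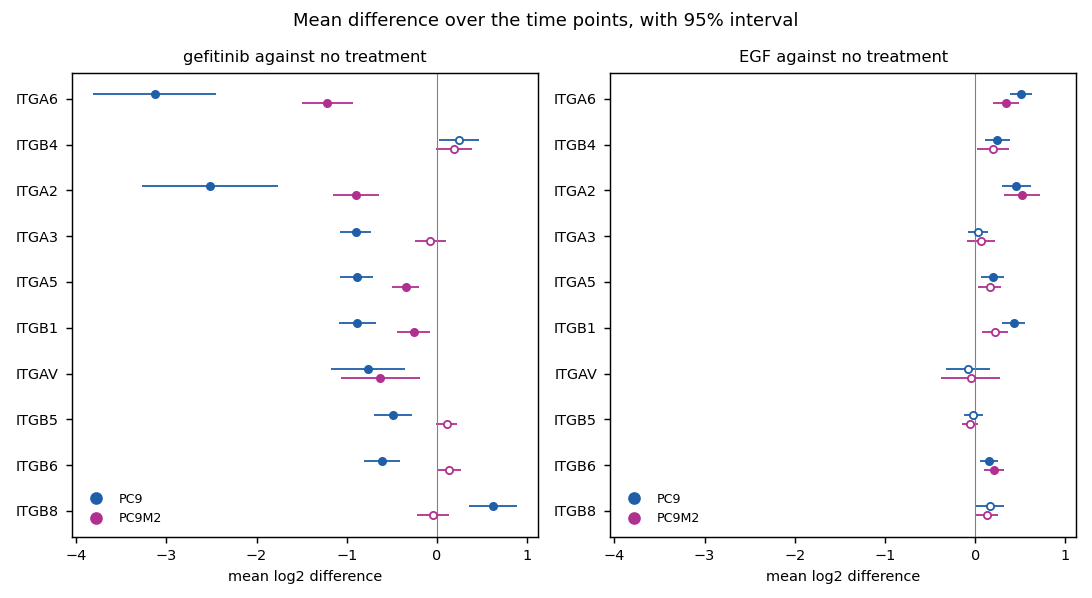
Mean log2 difference over the time points with its 95% interval for gefitinib (left) and EGF (right) against no treatment, in PC9 (blue) and PC9M2 (magenta), where filled points passed the adjusted p threshold. Gefitinib gave -3.13 for ITGA6 in PC9 and -1.22 in PC9M2, and EGF gave 0.51 and 0.34.

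The lines were next compared under each treatment, as PC9M2 minus PC9 at matched time points. Of the 9 subunits, 5 differed without treatment (2 higher and 3 lower in PC9M2, beside 31.1% of all genes higher, 37% lower and 68.1% called) and 7 with gefitinib (4 higher and 3 lower, beside 30.7%, 34.3% and 64.9% in the same order). With EGF, 6 differed (2 higher and 4 lower, beside 32.8%, 37% and 69.8%), and with both agents 8 differed (4 higher and 4 lower, beside 31.5%, 36.2% and 67.7%). These counts lie near the share called among all genes.

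ITGA6 was higher in PC9M2 under all 4 treatments. Without treatment the difference was 1.30 (SE 0.08, adjusted p = 1.83e-14), or 2.47-fold, at 25 of 26 time points, and with gefitinib it was 3.22 (SE 0.24, adjusted p = 1.60e-12), or 9.30-fold, at 26 of 26. It was 1.14 with EGF and 2.86 with both agents, again at 26 of 26 time points. With EGF the courses of the lines did not overlap, since the highest PC9 value of 13.82 lay below the lowest PC9M2 value of 14.21. ITGA3 was also higher in PC9M2 throughout, by 0.67 without treatment (adjusted p = 3.69e-06, 23 of 26), 1.5 with gefitinib (adjusted p = 2.30e-13, 26 of 26), 0.70 with EGF and 1.31 with both.

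ITGA2, ITGA5 and ITGAV were called lower in PC9M2, for ITGA2 with a direction that held on every probe only without gefitinib. For ITGA2 the difference was -2.58 without treatment (adjusted p = 3.65e-10, 25 of 26 time points) and -2.51 with EGF. On its most variable probe the lowest PC9 value with EGF, 7.01, exceeded the highest PC9M2 value of 6.96, a separation that its other probes did not have. The difference shrank to -0.95 with gefitinib (adjusted p = 0.0334, 16 of 26) and -1.32 with both agents (adjusted p = 0.00526, 18 of 26). The value with gefitinib turned to 0.59 with the brightest probe of ITGA2, to 0.55 after normexp background correction and to 0.50 over the last 13 time points. The value with both agents turned to 0.51, 0.48 and 0.23 in the same settings, so the direction is settled for neither. ITGA5 differed by -0.88 without treatment (adjusted p = 3.39e-08, 25 of 26), -0.91 with EGF, -0.34 with gefitinib (adjusted p = 0.00260, 22 of 26) and -0.44 with both. For ITGAV the differences of -2.20 without treatment (adjusted p = 1.15e-08), -2.17 with EGF, -2.06 with gefitinib (adjusted p = 3.74e-09) and -2.0 with both rest on the dim probe, which in those PC9M2 courses passed background on 7, 5, 4 and 4 arrays of 26, so their size is poorly measured. The bright ITGAV probe gave -0.40, -0.31, -0.33 and -0.29, all called.

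Among the β subunits the line differences depended on the treatment. ITGB5 differed by 0.06 without treatment (adjusted p = 0.541), by 0.65 with gefitinib (adjusted p = 4.51e-06, higher at 22 of 26 time points) and by 0.61 with both agents. ITGB6 differed by -0.20 without treatment (adjusted p = 0.0620), by 0.55 with gefitinib (adjusted p = 0.000513, 20 of 26) and by 0.44 with both (adjusted p = 0.0103). ITGB1 was called with EGF, at -0.49 (adjusted p = 0.0184), and gave -0.28 (adjusted p = 0.125) without treatment and 0.34 (adjusted p = 0.144) with gefitinib, where its other 2 probes were called higher in PC9M2 (0.44 and 0.75). ITGB4 gave -0.12 (adjusted p = 0.417) and -0.17 (adjusted p = 0.208) in the same comparisons and was called with both agents at -0.28 (adjusted p = 0.0304). On its brightest probe only, ITGB8 was higher in PC9M2 by 0.51 without treatment (adjusted p = 0.000122, 21 of 26) and by 0.48 with EGF (adjusted p = 0.000129). With EGF its other 2 tested probes gave -0.27, called lower in PC9M2, and -0.06, not called. With gefitinib the brightest probe gave -0.15 (adjusted p = 0.143), and the other 2 were called lower in PC9M2 (-0.56 and -0.60).

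**Figure D4:**
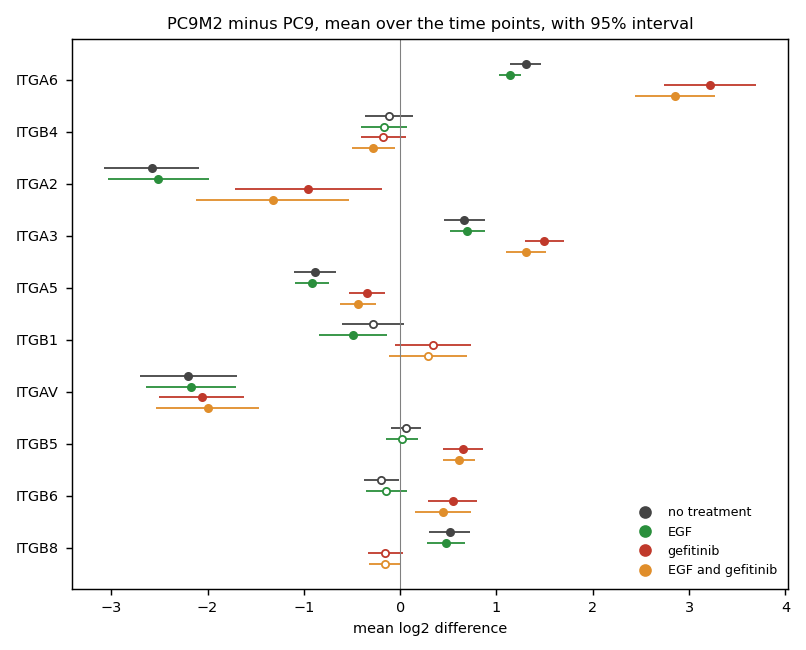
Mean log2 difference PC9M2 minus PC9 over the 26 time points with its 95% interval, for each subunit and treatment, where filled points passed the adjusted p threshold. ITGA6 went from 1.30 without treatment to 3.22 with gefitinib, and ITGA2 from -2.58 to -0.95.

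Of the 10 subunits, 4 had more than 1 probe, and each probe of these was also fitted by itself over 29927 probes. The decrease of ITGA2 with gefitinib was called on every probe, at -2.31, -2.21 and -1.94 in PC9 and -1.10, -1.03 and -0.86 in PC9M2 for A_23_P70161, A_24_P243329 and A_32_P208076. The line difference of ITGA2 depended on the probe. Without treatment these 3 gave -1.09, -1.06 and -0.49, smaller than the -2.58 of the probe A_32_P178800 but all called, and with gefitinib they gave 0.12, 0.12 and 0.59 against its -0.95. With EGF the same 3 gave -1.10, -1.12 and -0.60, all called, at 22, 24 and 20 of 26 time points.

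For ITGAV, the bright probe A_23_P50907, above background on every array and printed on 10 spots, moved far less than the dim one. Beside its smaller line differences, it gave gefitinib differences of -0.21 in PC9 and -0.14 in PC9M2, both called. The ITGB1 probes gave gefitinib differences of -0.85, -0.88 and -0.75 in PC9 and -0.25, -0.26 and -0.13 in PC9M2, all called. Without treatment the line differences of ITGB1 were -0.17, -0.28 and 0.13, none of them called, and the last of these probes, A_32_P95397, was saturated on 25 PC9 arrays. With both agents A_23_P104193 and A_32_P95397 were called higher in PC9M2, at 0.42 (13 of 25 time points) and 0.66 (22 of 25). They were so with gefitinib too, at 16 and 24 of 26 time points. The line difference with gefitinib changed sign over the course on the most variable ITGB1 probe. Its means were -0.46 over 0 to 4 h, 0.97 over 5 to 11 h, 1.11 over 12 to 18 h and -0.50 over 19 to 24 h.

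The ITGB8 probes were less alike. Gefitinib in PC9 gave 0.13 on A_23_P123060, which did not pass the test, 0.55 on A_24_P273599 and 0.62 on A_24_P759477. Without treatment the lines differed by 0.51 on A_24_P759477 and by -0.21 and -0.15, not called, on the others, so that the higher untreated ITGB8 signal of PC9M2 rests on 1 probe. The higher signal with EGF does so too, at 0.48 on A_24_P759477. There A_23_P123060 was called lower in PC9M2, at -0.27, and A_24_P273599 gave -0.06, not called. With both agents A_23_P123060 and A_24_P273599 were called lower in PC9M2, at -0.52 and -0.78, as they were with gefitinib. The probe left out of the tests, A_24_P929824, was above background on 24 arrays.

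**Figure D5:**
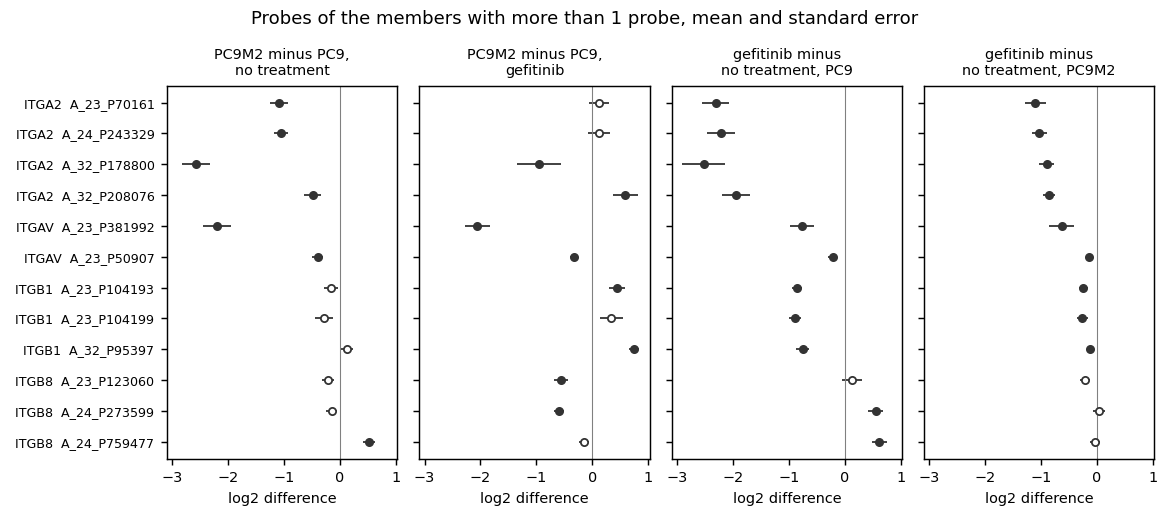
Log2 difference and standard error of each tested probe of ITGA2, ITGAV, ITGB1 and ITGB8 for the line differences without treatment and with gefitinib and for the gefitinib differences in PC9 and PC9M2, where filled points passed the adjusted p threshold. The 4 ITGA2 probes lie left of 0 in both gefitinib panels, whereas their line differences with gefitinib run from -0.95 to 0.59.

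Several subunits also moved during 24 h without any treatment. In each line 6 of 9 changed over time, beside 66.3% of all genes in PC9 and 67.2% in PC9M2, and the median fitted range of the subunits was 1.53 in PC9 and 0.84 in PC9M2, beside 0.98 over all genes in either line. In PC9 the changes were called for ITGA2 (fitted range 2.97, adjusted p = 0.0238), ITGB1 (1.64), ITGA3 (1.57), ITGB6 (1.53), ITGB4 (1.47) and ITGB5 (0.62). PC9M2 gave calls for ITGAV (2.23), ITGB4 (1.62), ITGA3 (1.27), ITGB6 (0.87), ITGA5 (0.76) and ITGB5 (0.49). The ITGAV value comes from its dim probe, above background on 7 of the untreated PC9M2 arrays, so it is poorly measured. ITGA6, which moved most under gefitinib, spanned 0.53 log2 units of the spline for untreated PC9 (adjusted p = 0.115) and 0.51 for untreated PC9M2 (adjusted p = 0.187), neither called. Arrays of neighbouring time points were often scanned on the same day, so time and scan day overlap in these courses.

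Genes that surround the subunits were counted by list, to be read beside the 72.3% of all genes called for gefitinib in PC9, 66.7% in PC9M2 and 68.1% between the untreated lines. Of 16 other integrin subunits, 9 were tested, and gefitinib changed 5 in PC9, all lower, led by ITGA1 (-0.98), ITGAM (-0.80) and ITGAX (-0.79). In PC9M2 it changed 5, of which 4 were lower, with ITGA1 (-0.82), ITGAM (-0.70) and ITGAE (-0.51) first. The list's median difference was -0.26 in PC9, beside -0.02 over all genes, and 0.04 in PC9M2, beside -0.01. These counts lie below or near the shares of all genes. The line difference without treatment was called for 6 of these 9, 5 of them lower in PC9M2, led by ITGAX (-1.56), ITGB2 (-1.20) and ITGA1 (-1.20).

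Among the ligands, calls ran in both directions. Of 11 laminin chains, 6 changed with gefitinib in PC9 (3 higher and 3 lower, beside 72.3% of all genes) and 8 in PC9M2 (4 higher and 4 lower, beside 66.7%). LAMB2 was higher by 2.19 in PC9 and 1.30 in PC9M2, while LAMA3, a chain of the laminin bound by the ITGA6 and ITGB4 pair, was lower by log2 differences of -1.07 and -0.80. Larger in size than those of LAMA3, but not of LAMB2, were the differences of LAMA2 in PC9 (-1.83, above background on 7 gefitinib arrays) and LAMA4 in PC9M2 (1.00). Between the untreated lines LAMA3 was higher in PC9M2, by 1.37. Of 15 tested other matrix ligands, 13 changed in PC9 (7 higher and 6 lower) and 9 in PC9M2 (5 higher and 4 lower). They included TNC (-2.16), SPP1 (1.52) and THBS1 (-1.55) in PC9 and THBS1 (-1.24) in PC9M2, where the dim EDIL3 (1.83) and FN1 (1.14) were above background on 4 and 12 untreated arrays. Between the untreated lines 14 of these ligands differed, 10 of them higher in PC9M2, with SPP1 at 2.08, CCN2 at -1.89 and CCN1 at -1.77.

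Of 29 adhesion adaptors and kinases, gefitinib changed 27 in PC9 (10 higher and 17 lower) and 22 in PC9M2 (9 higher and 13 lower), beside 72.3% and 66.7% of all genes. TNS1 and TNS4, members of the tensin family of focal adhesion proteins, went opposite ways, TNS1 by 3.26 in PC9 and 2.72 in PC9M2 and TNS4 by -2.79 and -1.40. TNS1 was above background on 3 untreated PC9 arrays and 1 untreated PC9M2 array. Of 7 hemidesmosome and tetraspanin partners, 6 changed in PC9 (4 higher and 2 lower) and 5 in PC9M2 (3 higher and 2 lower), beside the same shares, led by the tetraspanin CD82 (1.86 and 2.16) and by plectin, PLEC (-1.21 and -0.95). COL17A1, a transmembrane collagen of hemidesmosomes, had the largest line difference of these lists, 3.14 higher in untreated PC9M2 and at 26 of 26 time points.

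The genes whose centred profiles lay closest to a subunit over all arrays were sought for the 3 subunits with the largest standard deviation. For ITGA6 (SD 2.03) these were HS3ST1, IL1R2 and CENPV, with root mean square differences of 0.796, 0.831 and 0.859 log2 units. For ITGA2 (SD 1.90) they were KRT6B (0.954), MLKL (0.976) and SPRR2D (1.01), and for ITGAV (SD 1.40), on its dim probe, ZNF813 (0.653), HSDL2 (0.682) and ZNF709 (0.744).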

How the data were processed

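Total RNA of each culture was labelled with Cy3, hybridised to 1 Agilent 44K array and read with Feature Extraction 10.5.1.1, per the file headers. The deposited scanner files give each spot's processed signal, a background-subtracted intensity on a linear scale. The table deposited by the authors held the same intensity after quantile normalization of all 45015 features and served as an alternative.

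Processed signals of non-control features were quantile normalized over all arrays, set to at least 1 and put on the log2 scale. Only fold changes that reach this floor are cut short by it. Between the untreated lines the dim probes of ITGA2 and ITGAV gave -2.58 and -2.20. The brighter probes gave smaller differences, -1.09, -1.06 and -0.49 for ITGA2 and -0.40 for ITGAV. Outlier spots (0.301% of the spots of tested probes) were removed and the spots of a probe averaged. Accessions named 24794 probes through RefSeq. Each gene took its probe with the largest variance and was tested if at least 13 of the 26 arrays of any course had it well above background. No sequence of the probes was used, and genes with near-identical copies could share signal.

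Groups came from the sample labels. As in the study's methods, courses were compared by differences at matched time points, here with limma 3.58.1 in R 4.3.3, two-sided where the methods tested for higher in PC9M2. Changes over time were tested with a natural spline of 4 degrees of freedom. P-values were adjusted by Benjamini-Hochberg over all 13263 genes at 0.05, and intervals are 95%. Those of ITGB8 were adjusted over the genes of a separate fit on the brightest probe of each gene. Those of single probes were adjusted over 29927 probes. Neighbouring time points were treated as replicates, and the lag-1 autocorrelation of the differences had a median over genes of -0.06 to 0.51 in the comparisons. The number of arrays limits the precision. The subunits and gene lists were chosen with earlier results of these data known. All subunits were named. Genes named from each other list were among the 3 called genes with the largest differences, and not all of those were named. Profile neighbours were given for the 3 most variable subunits.

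Alternatives changed the scaling, background correction (normexp on the median signals with an offset of 50), probe choice, filter, floor, saturated spots, time points, scan day as a random block, pairing and test. Leaving out the 11 h and 16 h arrays and fitting each probe were added after seeing the data.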

Additional observations from a re-analysis of the deposited data

Results flagged for a closer look

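The difference with gefitinib was called as unequal between the lines for 7 of the 9 tested subunits, beside 34% of all genes, and for ITGB8 in a separate fit, by the test of the PC9M2 difference minus the PC9 difference at matched time points. The values were 1.92 for ITGA6, 1.62 for ITGA2, 0.83 for ITGA3, 0.74 for ITGB6, 0.62 for ITGB1, 0.59 for ITGB5 and 0.54 for ITGA5, where ITGA6, ITGA2, ITGA3, ITGB1 and ITGA5 had a smaller negative difference in PC9M2, and ITGB5 (0.10) and ITGB6 (0.13) a positive one that was not called. For ITGB8 the value was -0.67 on its brightest probe, beside -0.49 (called) and -0.35 (not called) on its other tested probes. Line and scan settings cannot be told apart in these values, although each gefitinib difference was taken within slides.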

How the results depend on the processing

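The calls of ITGA6 for gefitinib in PC9 (-4.73 to -1.53), in PC9M2 (-1.81 to -0.62), their difference (0.92 to 2.91) and the lines without treatment (1.12 to 1.48) or with gefitinib (2.04 to 4.40) held under every alternative run. Courses had 1 array per time point and lines shared no slide, so between-line values carry scan differences, and the dim probes of ITGA2 and ITGAV limit their values. Courses were paired by time point, and the unpaired fit was the alternative. Of the counts of called subunits, 284 stayed within 1.5 times the main count and 48 did not. With time points 3 h apart, counts went from 8 to 5 (lines with both agents), 6 to 3 (EGF in PC9), 5 to 3 (gefitinib in PC9M2), 3 to 0 (EGF in PC9M2), 1 to 0 (EGF on gefitinib in PC9M2), 7 to 3 (difference of gefitinib effects), 6 to 0 and 6 to 2 (untreated change over time in PC9 and PC9M2) and 5 to 1 (change over time with gefitinib, either line). With fewer time points the test has less power. EGF on gefitinib in PC9M2 gave 2 with 75th percentile scaling, normexp, the brightest probe, the filter for all 26 arrays, outlying points replaced, a floor of 16, 0 h left out, the scan day block and the last 13 time points, and 0 unpaired, with at least 1 log2 unit required and over the first 13 time points. The scan day block gave 5 instead of 8 for the lines with both agents and 3 instead of 6 for untreated PC9M2 over time. Unpaired courses gave 1 for EGF in either line. Variance inflated for autocorrelation gave 5 for the lines with both agents and 3 for gefitinib in PC9M2. Requiring at least 1 log2 unit gave 3, 3, 3 and 4 for the lines without treatment, with gefitinib, EGF and both, 2 and 3 for gefitinib without and with EGF in PC9, 1 and 2 in PC9M2, 0 for EGF in either line and 2 for the difference of gefitinib effects, and a fitted range of at least 1 gave 3 in both PC9M2 tests over time. The first 13 time points gave 3 for gefitinib in PC9M2, 0 for EGF in PC9M2 and 3 for the difference of effects. One-sided tests for higher in PC9M2 gave 2, 4, 2 and 4 for the lines, since they cannot call a decrease.

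Of the single subunits, 26 values turned sign, 14 of them called in the reported fit and 5 called under the alternative. With normexp, ITGA2 between lines gave 0.55 with gefitinib and 0.48 with both agents, and the ITGB4 difference of effects 0.0039. The brightest probes gave 0.13 for ITGB1 between untreated lines and 0.59 and 0.51 for ITGA2 between lines with gefitinib and both. The mean of all probes gave -0.014 and -0.053 for ITGB8 between lines without treatment and with EGF. Without a filter, the dim probe of ITGB8 gave -0.21 and -0.36 there, 0.11 for gefitinib and 0.26 for gefitinib on EGF in PC9M2, and 0.21 for EGF on gefitinib. Time points 3 h apart gave -0.062 for ITGB5 between untreated lines and -0.42 and 0.038 for the differences of effects of ITGAV and ITGB4. The first 13 time points gave 0.17, 0.25 and 0.12 for ITGB4 between lines (untreated, gefitinib, both), 0.022 for gefitinib on ITGB1 in PC9M2 and 0.079 for the ITGB4 difference of effects. The last 13 gave -0.053 for ITGB5 between untreated lines, 0.50 and 0.23 for ITGA2 between lines with gefitinib and both, -0.18 for gefitinib on ITGB4 in PC9M2 and -0.16 for the ITGAV difference of effects. The cause of these turns was not tested, other than the change of probe itself.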
